A study of Nasonia vitripennis with 6 samples.

Results

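Toll-dependent loci that were not paired with a gene of known expression pattern were drawn from RNA-seq of early wasp embryos, and 44 of 20033 loci belonged to the set. The members were selected on measured FPKM (a fragment count scaled for library depth and transcript length). A member had a mean above 1 FPKM in embryos of water-injected mothers. Its mean after Toll knockdown was at most the water mean divided by 1.5, with both Toll libraries below both water libraries, and its mean after BMP knockdown was at least 0.9 times the water mean. These limits were met by 66 of the 7883 loci above 1 FPKM in water (0.837%). The RNAi target itself and 21 loci paired with a gene whose pattern the study had shown by in situ hybridization were then left out. The table that pairs loci with genes was held only in part and gave no gene for 39 of the 44 members, so the lack of a known pattern was looked up for 5 members and is not established for the other 39. Of the 111 entries in the study's list of genes with an in situ pattern, 8 were paired with no locus. Every level and ratio below therefore describes loci chosen for that pattern, and no test of the same contrasts is offered as support.

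The embryos were of the parasitoid wasp Nasonia vitripennis, pooled at the late blastoderm, 4 to 7 h after egg lay. Mothers were injected as yellow pupae (parental RNAi, pRNAi, which lowers the transcript in their embryos) with about 2 micrograms of dsRNA or with water. There were 2 libraries from TollA dsRNA, made in the study with separate, non-overlapping parts of the gene, 2 from water, and 2 from knockdown of BMP ligands, 1 with dpp and 1 with gbb1 dsRNA. The BMP libraries were treated as replicates, as in the study, so a difference between dpp and gbb had no replicate. In pools of this kind, fewer cells of a type and less RNA per cell cannot be told apart.

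Toll signaling carries the nuclear factor Dorsal to a ventral peak in insect embryos, where it turns on mesoderm genes such as twist and snail. BMP signaling acts from the dorsal side and limits how far ventral fates spread. In this wasp, loss of Toll removes ventral fates, and loss of BMP expands them at the cost of dorsal ones. Transcripts of ventral cells are therefore typically low without Toll and level or high without BMP. A pooled-embryo level alone gives no position in the embryo.

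The libraries held 22754267 to 30590172 fragments. Pairs of values stand in the order replicate 1, replicate 2, and for BMP pRNAi in the order gbb, dpp. The targeted gene (XLOC_018374, Nasvi2EG005329) had 4.92 and 1.23 FPKM after Toll pRNAi, against 101 and 128 in water and 100.5 and 110 after BMP pRNAi. The 19 paired loci of the ventral list, among them twist and snail, summed to 89.8 and 85.5 FPKM after Toll pRNAi, 263 and 258 in water, and 391.9 and 349 after BMP pRNAi. No locus of that list was at 0 in all libraries. The title numbers of the water samples differ from those of the knockdown samples, and the labels do not say what these numbers mark, so a difference from water and whatever the numbers mark cannot be told apart. The 2 water libraries also stood apart from each other in many members: water replicate 2 was more than 1.3 times water replicate 1 in 19 of 44 members, against 6.27% of all loci above 1 FPKM in water. The 2 shares are not like for like. The rule used the water mean, which 1 high library can raise. The members were also scarcer than all these loci, with a median water level of 1.97 against 18.4 FPKM. The rule was therefore also applied without each water library. Among single members, a ratio of water to Toll without a water library is given only for XLOC_014583 and XLOC_017484.

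Most members were rare transcripts with modest ratios. The water mean lay between 1.03 and 28.4 FPKM with a median of 1.97, and 23 members were below 2 FPKM. Only 15 members passed 3 FPKM, and 6 passed 10 FPKM. Behind these levels, the library with the fewest fragments held 1 to 792 fragments per member, with a median of 66, and in 14 members it held fewer than 30. After Toll pRNAi the median member kept 61.2% of its water level (32.3% to 66.7%). The ratio of water to Toll means had a median of 1.63 and an upper quartile of 1.78, and was above 2 in 7 members. After BMP pRNAi the median member stood at 1.02 times water (0.902 to 1.73), with 23 members above and 21 below the water mean.

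The members thus crowded against the limits that defined them. Just inside the 1.5 limit were XLOC_002078 (ratio 1.5001), XLOC_002999 (1.51) and XLOC_003654 (1.51). Just outside it were XLOC_019174 (1.497), XLOC_000354 (1.497) and XLOC_019108 (1.496). On the BMP limit, XLOC_006991 (0.902), XLOC_007961 (0.906) and XLOC_005481 (0.907) were kept, while XLOC_014506 (0.899), XLOC_012905 (0.897) and XLOC_005969 (0.893) were not. At the floor in water, XLOC_004956 (1.03 FPKM) was kept and XLOC_008695 (0.95 FPKM) was not. The Toll side of the rule was met by 3.17% of loci above 1 FPKM in water. Outside the patterned genes and the target, 177 loci met that side and were lost on the BMP limit alone, and a further 224 met all limits but the floor.

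**Figure D1:**
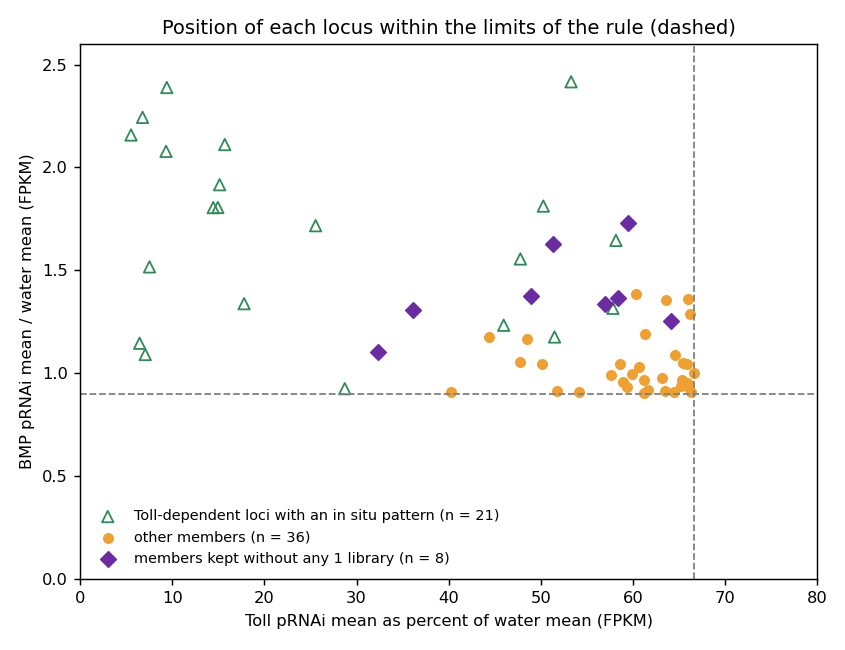
Mean after Toll pRNAi as a percent of the water mean (x axis) against the ratio of the BMP pRNAi to the water mean (y axis), both from FPKM, 1 point per locus, with dashed lines at the limits of the rule. The 36 members lost in at least 1 leave-one-out setting crowd toward the corner of the limits, while 14 of the 21 loci with an in situ pattern have a water mean more than 3 times the Toll mean.

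When the rule was applied again without each library in turn, 8 members met it in every case: XLOC_000273, XLOC_000891, XLOC_002435, XLOC_006052, XLOC_007005, XLOC_009317, XLOC_009628 and XLOC_010628. Each of the 8 also met it on counts scaled between libraries by TMM in place of FPKM. They kept 32.3% to 64.2% of their water level after Toll pRNAi. All had a higher mean after BMP pRNAi than in water, by 1.10 to 1.73 times, and in 7 of the 8 both BMP libraries were above both water libraries. The way the 8 were picked favoured this. Each BMP library alone had to meet the BMP limit, and the BMP mean had to meet it against each water library alone. That limit lay below the water level, so a rise was not required, but the high BMP levels were partly set by the choice. Both BMP libraries lay above both water libraries in 10 of all 44 members, and in 38.1% of loci above 1 FPKM in water. Their library with the fewest fragments held 17 to 437 fragments.

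XLOC_010628 (Nasvi2EG002903, scaffold 3, positions 5139365 to 5152485 of assembly 1.0) had the lowest Toll level relative to water. It was at 0.858 and 0.932 FPKM after Toll pRNAi, 2.62 and 2.93 in water, 2.99 in the gbb library and 3.13 in the dpp library. The Toll libraries were set well apart from the other 4, which lay close together, and the water mean was 3.10 times the Toll mean. It rested on 101 to 449 fragments per library. The study looked for its transcript by in situ hybridization and entered it as not found.

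XLOC_009628 was at 0.54 and 0.657 FPKM after Toll pRNAi, 1.37 and 1.95 in water, 2.61 in the gbb library and 1.73 in the dpp library. The Toll libraries were again lowest by a wide margin, with a water to Toll ratio of 2.77, but the water libraries differed by 1.42 times and the dpp library fell between them. The locus spans positions 89987 to 99861 of scaffold 266 and holds 3 gene identifiers (Nasvi2EG025482, Nasvi2EG025483 and Nasvi2EG025485), so its level cannot be assigned to one of them. No in situ hybridization was tried for it.

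XLOC_002435 had 3.33 and 4.11 FPKM after Toll pRNAi, 7.49 and 7.01 in water, 13.1 in the gbb library and 10.5 in the dpp library. The 3 groups did not overlap and stood in the order Toll, water, BMP, with water at 1.95 times Toll and BMP at 1.63 times water. This locus is 226719 bp long (scaffold 12, positions 1457128 to 1683846), holds Nasvi2EG007153 and Nasvi2EG007155, and was entered as not found in situ. XLOC_000273 gave the same order at a lower level, with 1.60 and 1.97 FPKM after Toll pRNAi, 3.03 and 2.97 in water, 5.39 in the gbb library and 4.98 in the dpp library. Its BMP to water ratio of 1.73 was the highest of the members above 3 FPKM in water, and its 402 to 1786 fragments per library made it one of the best covered.

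XLOC_000891 (Nasvi2EG006406, scaffold 10, positions 1396335 to 1396971, not tried in situ) was the most abundant of the 8. It had 11.5 and 11.1 FPKM after Toll pRNAi, 18.2 and 17.04 in water, 23.4 in the gbb library and 20.7 in the dpp library. Replicates lay close in every group and the groups did not overlap, although the Toll level was still 64.2% of water. The locus is only 637 bp long.

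The remaining 3 of the 8 were scarce. XLOC_006052 had 0.994 and 0.858 FPKM after Toll pRNAi, 1.54 and 1.63 in water, 2.59 in the gbb library and 1.74 in the dpp library. XLOC_009317 had 0.82 and 0.685 FPKM after Toll pRNAi, 1.42 and 1.22 in water, 1.68 in the gbb library and 1.85 in the dpp library. XLOC_007005 had 0.51 and 0.662 FPKM after Toll pRNAi, 1.23 and 1.16 in water, 1.69 in the gbb library and 1.59 in the dpp library. All 3 were in the order Toll, water, BMP without overlap. XLOC_009317 and XLOC_007005 rested on as few as 17 and 20 fragments in 1 library.

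**Figure D2:**
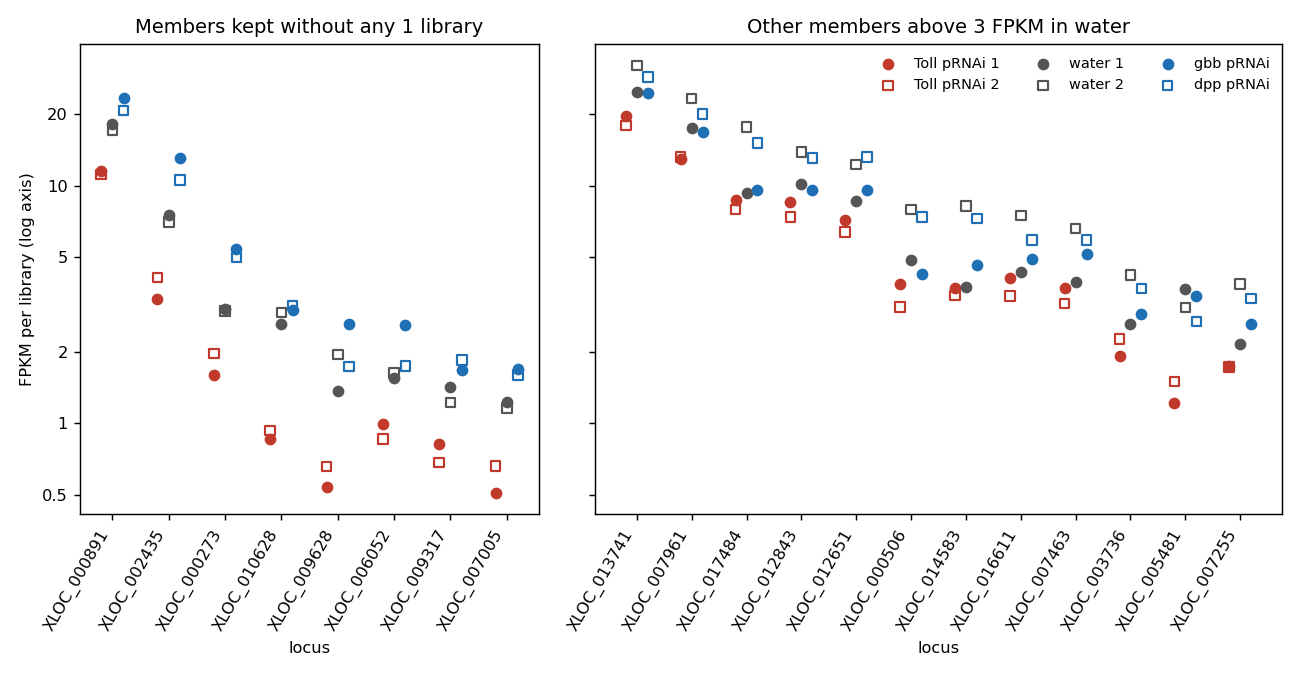
FPKM in each of the 6 libraries on a log axis, for the 8 members that met the rule whichever library was left out (left) and the 12 other members above 3 FPKM in water (right), with filled circles and open squares for the 2 libraries of each group. On the left the 2 water libraries lie close together in most loci, and on the right water 2 and dpp pRNAi stand above water 1 and gbb pRNAi in all loci but XLOC_005481.

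The other 36 members failed the rule without at least 1 library. Only 16 of 44 members met it without water replicate 2, and 16 without water replicate 1, although 47 and 37 loci in all passed in those settings. Among the 19 members in which water 2 exceeded 1.3 times water 1, only XLOC_009628 still met the rule without water 2. That result was largely set by the choice of the 19. Leaving out water 2 lowers their water mean, and their ratio of water to Toll had a median of only 1.62. Most of the 19 also failed without water 1, among them XLOC_017484 and XLOC_014583. In all 19, water 2 was at least 1.5 times the Toll mean, so those failures were on the BMP limit. With water 1 left out, that limit compared the BMP mean with water 2 alone. The BMP mean was 12.3 FPKM against 17.7 in water 2 for XLOC_017484, and 5.95 against 8.21 for XLOC_014583. Failing without water 1 as well therefore does not show that the failures were unrelated to the raised water 2. The limit of 1.3 was chosen after the values were seen, and the ratio ran without a break from 0.606 to 2.48, so these 19 are a range and not a class. In 17 of the 19, water 1 was within 1.3 times the higher Toll library.

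Of the 6 members above 10 FPKM in water, 4 were among them. XLOC_017484 had 8.70 and 7.94 FPKM after Toll pRNAi, 9.30 and 17.7 in water, 9.62 in the gbb library and 15.1 in the dpp library. Water 1 and the gbb library were thus nearer to the Toll libraries than to water 2. XLOC_014583 had 3.72 and 3.44 FPKM after Toll pRNAi, 3.75 and 8.21 in water, 4.65 in the gbb library and 7.25 in the dpp library. Its water 1 value was 1.01 times the higher Toll library, the narrowest gap of the set. Its log2 ratio of the water to the Toll mean was 0.74, and without water 2 it was 0.07.

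XLOC_000506 had 3.84 and 3.08 FPKM after Toll pRNAi, 4.85 and 7.94 in water, 4.23 in the gbb library and 7.38 in the dpp library. XLOC_007255 had 1.74 and 1.73 FPKM after Toll pRNAi, 2.15 and 3.86 in water, 2.62 in the gbb library and 3.35 in the dpp library. Both repeated the split, with water 2 and dpp high together. XLOC_016611 (water 4.34 and 7.48 FPKM), XLOC_007463 (3.93 and 6.59) and XLOC_003736 (2.61 and 4.21) also had a water 2 level 1.61 to 1.72 times water 1, and in each the dpp library was above the gbb library.

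XLOC_007961 (Nasvi2EG010309, scaffold 21, positions 214001 to 219779, not tried in situ) was the only one of these with 1 gene identifier. It had 12.9 and 13.2 FPKM after Toll pRNAi, 17.4 and 23.2 in water, 16.8 in the gbb library and 20.02 in the dpp library. The Toll libraries were the 2 lowest, yet the gbb library was below both water libraries. XLOC_012843 (10.1 and 13.9 FPKM in water) and XLOC_012651 (8.63 and 12.3) had ratios of water 2 to water 1 of 1.37 and 1.42, and of dpp to gbb of 1.36 and 1.38. XLOC_013741, the most abundant member, fell just under the limit of 1.3, with 24.7 and 32.0 FPKM in water, 19.6 and 17.9 after Toll pRNAi, 24.4 in the gbb library and 28.7 in the dpp library.

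Across the 44 members, the log2 ratio of water 2 to water 1 and that of dpp to gbb had a Pearson r of 0.46 (Spearman rho 0.51), against 0.07 (rho -0.15) across 7879 loci above 1 FPKM in water with values in all libraries. Within the 19 members with the raised water 2, r was 0.52 (rho 0.45), and across the other 25 members r was -0.19 (rho -0.13). The parts were cut on 1 of the 2 ratios, so these values do not say where the pooled value came from. Loci of 1 sample share its library and depth, so these are descriptions. The dpp library was above the gbb library in 27 of the 44 members, near the share of 58.5% over all loci above 1 FPKM in water. These were 16 of the 19 members with the raised water 2 and 11 of the other 25, a split made after the values were seen. The 19 were picked for a high water 2, and the rule set both Toll libraries below both water libraries, so a rank of water 2 among the 6 libraries is not read in them.

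Germline genes, which are transcribed in primordial germ cells, also had higher levels in water 2 than in water 1 and in dpp than in gbb. The list holds 5 genes, of which 4 were paired with loci: gapdh, which encodes a glycolytic enzyme, jafrac, and a pair of heat shock genes. Their summed level was 131 and 116 FPKM after Toll pRNAi, 171 and 274 in water, 161 in the gbb library and 246 in the dpp library, and none was at 0. Water 2 and dpp were the 2 highest libraries in 4 of the 4. None of the 4 met the rule that chose the members. The gapdh locus (XLOC_003087, Nasvi2EG007624) had 16.2 and 14.0 FPKM after Toll pRNAi, 20.2 and 40.4 in water, 13.9 in the gbb library and 26.7 in the dpp library. The part of germ cells in the levels of the 19 members was not tested.

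The ventral list did not share that split. Its 19 loci summed to 263 FPKM in water 1 and 258 in water 2, and 15 of the 19 had both BMP libraries as their 2 highest. Lists for other regions were nearer to level between water libraries than the germline list: serosa genes, of the extraembryonic cover, summed to 902 and 902 FPKM, and broad lateral genes to 630 and 647 FPKM. The 19 members were picked for a raised water 2, so their split in water was set by that choice. As medians, they stood at 76.6% of their own water mean in water 1 and 123% in water 2. In the gbb and dpp libraries they stood at 87.0% and 112%. The germline genes stood at 72.8% and 127% in water, and at 56.3% and 96.7% in the gbb and dpp libraries.

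**Figure D3:**
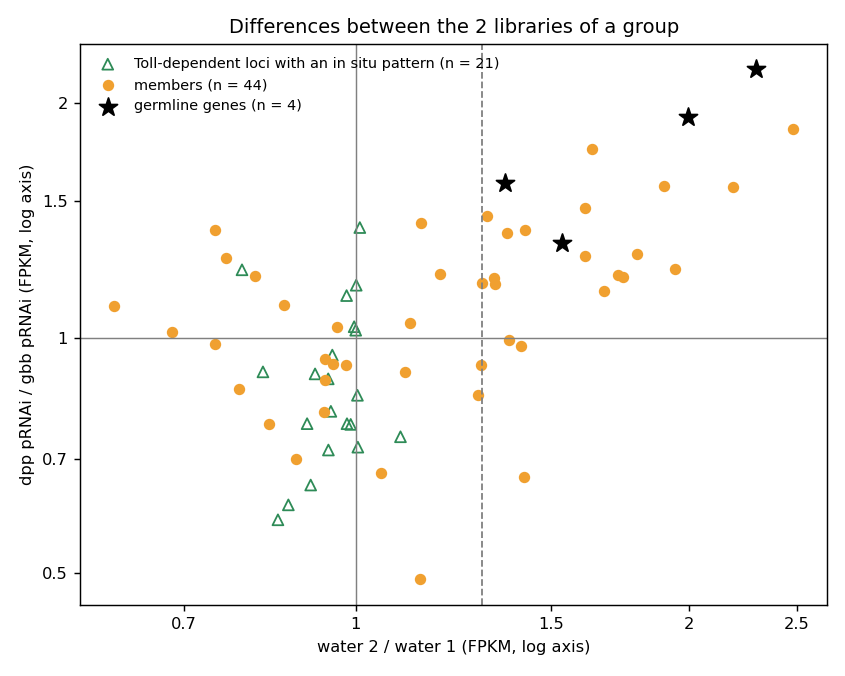
Ratio of water 2 to water 1 (x axis) against the ratio of dpp to gbb pRNAi (y axis) in FPKM on log axes, 1 point per locus, with solid lines at equal levels and a dashed line at 1.3. The 4 germline genes lie in the upper right with 16 of the 19 members beyond the dashed line, and none of the 21 loci with an in situ pattern passes it.

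**Figure D4:**
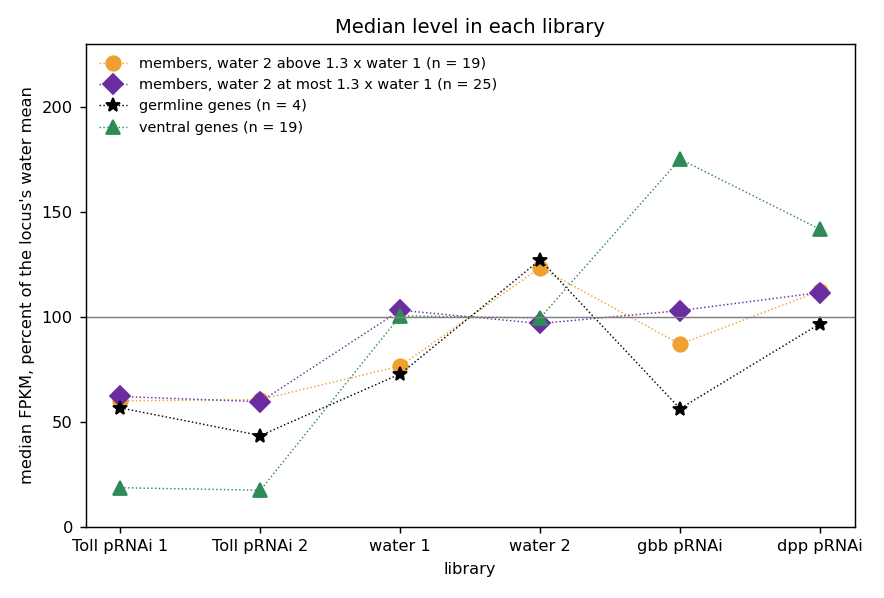
Median FPKM in each library as a percent of the locus's own water mean, for the 19 members with the raised water 2, the other 25 members, 4 germline genes and 19 ventral genes, with dotted lines only to join the points of a set. The 19 members were picked for the raised water 2, so their dip in water 1 was set by that choice. In gbb pRNAi their median was 87.0%, above their 76.6% in water 1. The germline median was 56.3% in gbb pRNAi, below its 72.8% in water 1. The ventral genes are level between water libraries and at 18.6% and 17.4% after Toll pRNAi.

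Of the 25 members without a raised water 2, 13 had both water libraries at least 1.5 times the Toll mean. Apart from those already described, XLOC_005481 had the largest ratio of water to Toll, 2.49, among members above 3 FPKM in water, with 1.21 and 1.5004 FPKM after Toll pRNAi, 3.67 and 3.07 in water, 3.44 in the gbb library and 2.67 in the dpp library. Its Toll libraries were clearly lowest, but they held only 9 and 13 fragments. XLOC_005852 was similar in shape, with 1.15 and 0.902 FPKM after Toll pRNAi, 2.02 and 1.94 in water, 1.78 in the gbb library and 1.84 in the dpp library, from at least 63 fragments each. XLOC_012834 had 0.947 and 0.934 FPKM after Toll pRNAi, 1.57 and 1.39 in water, 2.36 in the gbb library and 1.65 in the dpp library, again in the order Toll, water, BMP.

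At the other end, 3 members had fewer than 10 fragments in some library. XLOC_016861 had 1 to 5 fragments per library and XLOC_001075 had 4 to 13, and these 2 were too scarce to be tested. At that depth a difference between libraries was not detectable beyond counting error. XLOC_001265 had 10 fragments at 0.363 FPKM and 17 at 0.907 FPKM in its Toll libraries, so its FPKM did not follow its fragments. On TMM-scaled counts, 27 of the 44 members met the rule.

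Among the 42 members that passed edgeR's filter on low counts, 4 were called lower after Toll pRNAi than in water (quasi-likelihood test, adjusted p under 0.05 over 10241 loci), where 1.03% of all tested loci were called in that direction. They were XLOC_000273, XLOC_002435, XLOC_009628 and XLOC_010628. After BMP pRNAi, 2 members, XLOC_000273 and XLOC_002435, were called higher than in water, beside 2.06% of all tested loci. Between the knockdowns, 12 members were called lower after Toll than after BMP pRNAi, beside 1.06%. These 12 were all of the 8 kept members with XLOC_000115, XLOC_005852, XLOC_010460 and XLOC_012834. The rule fixed the directions of the first and the last count. It required only 0.9 times water after BMP pRNAi, so the direction of the second was free above that limit. All 3 contrasts were used by the rule, and the counts are given as a description.

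The first count moved with the libraries in the fit, and so did the share of all tested loci called. It was 1 without either water library or either Toll library, where 0.151% to 0.395% of all tested loci were called, and 13 without the gbb or the dpp library, where 5.88% and 6.44% were. A group left with 1 library has no spread of its own and was assumed to vary like the other groups. The count between the knockdowns was 4 without either Toll library (0.348% and 0.387% of all tested loci), 19 without the gbb library (7.68%) and 8 without the dpp library (0.811%). The count of members higher after BMP pRNAi was 0 without water replicate 2 (5 at an unadjusted p under 0.05 in edgeR), beside 0.0567% of all tested loci, and 1 without water replicate 1 or either Toll library, beside 0.16% to 0.283%. The median log2 fold change of the 42 members in the edgeR fit was -0.65 after Toll pRNAi against water, where the median of all tested loci was 0.02. Without water replicate 2 it was -0.50, over 43 members.

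The members differed from the 21 loci with a known pattern that met the same rule, a set chosen with the same limits and compared here as a description. The study had also first picked its genes for in situ hybridization from these same data. By its account they needed a q-value under 0.05, a change above 1.5 times in some comparison and over 3 FPKM in wild type. The differences below are therefore partly set by that choice. Those 21 loci, among them twist, snail and single-minded, kept a median of 15.7% of their water level after Toll pRNAi, where the members kept 61.2%. Their median water level was 6.78 FPKM against 1.97 FPKM. They stood at 1.72 times water after BMP pRNAi, and 18 of 21 had both BMP libraries above both water libraries. In all 21 both water libraries were at least 1.5 times the Toll mean, which held for 14 of the 44 members. The twist locus (XLOC_000520, Nasvi2EG000292) had 2.93 and 1.33 FPKM after Toll pRNAi, 40.3 and 37.0 in water, 87.8 in the gbb library and 79.0 in the dpp library.

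Genes known from the fly were covered as well. Of 49 wasp identifiers listed as orthologs of fly mesoderm genes, 7 were paired with loci, and 6 of these 7 were lower after Toll pRNAi than in water while 5 were higher and 1 lower after BMP pRNAi (edgeR, threshold 0.05 on the adjusted p). Of 39 for the fly ventral ectoderm, 4 were paired and 3 tested, with 1 lower after Toll pRNAi and 2 higher and 1 lower after BMP pRNAi. No member was paired with a gene of either list. The pairing table was held only in part and lists changed loci first, so these shares cover the genes that could be looked up.

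Names and places were known for few members. Only 5 of 44 were paired with gene identifiers, 8 identifiers in all, and none with a named protein. The other 39 are given by the number of the locus in the study's assembly of transcripts. Of 51 paired loci whose transcript was not found in situ, 2 were members, and of 138 that were not tried, 3 were. None of the 5 members with coordinates lay within 50 kb of another such member or of a ventral gene. Only XLOC_007961 shared a scaffold with a ventral gene, the zinc finger homeodomain gene XLOC_008029, at 1147796 bp.

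For 1 unpaired member the locus number narrowed the place. Locus numbers followed position: of 1485 pairs of loci next to each other in number and on 1 scaffold, 1384 rose in start position, and the 101 exceptions fell on 101 different scaffolds. XLOC_000115 is numbered between XLOC_000114 (Nasvi2EG000293, scaffold 1, positions 2158040 to 2160387) and XLOC_000116 (Nasvi2EG036912, positions 2179038 to 2181544). If the order held there, it lay 11603 to 35107 bp beyond the end of twist (positions 2144511 to 2146437). Its position was inferred from that order and is not given in the pairing table.

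XLOC_000115 had 1.94 and 1.60 FPKM after Toll pRNAi, 3.07 and 2.29 in water, 3.68 in the gbb library and 3.62 in the dpp library. The groups did not overlap and stood in the order Toll, water, BMP, with BMP at 1.36 times water. It failed the rule without water replicate 1, without Toll replicate 2 and on TMM-scaled counts. Its neighbour XLOC_000114, below the floor in water and so no member, had 0.017 and 0.0301 FPKM after Toll pRNAi, 0.649 and 0.704 in water, 1.54 in the gbb library and 1.31 in the dpp library. The Toll values of XLOC_000114 rested on 1 and 2 fragments. On the far side, XLOC_000116 had at most 0.112 FPKM in any library. XLOC_000522 (positions 2171977 to 2174005) had 0.231 and 0.12 FPKM after Toll pRNAi and 0.105 and 0.148 in water. XLOC_000516, before twist (positions 2122329 to 2123815), went the other way, with a Toll mean at 147% of water and a BMP mean at 0.541 times water.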

How the data were processed

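Poly-A RNA of pooled embryos was measured in 6 libraries, grouped by the injected agent in the sample labels. Per the labels, the authors aligned reads with TopHat2 2.0.3 and used Cufflinks 2.0.2 and Cuffdiff; per the study, assembly 1.0 and annotation 2.0 were used. The table the authors deposited pairs every locus in a library with its expected count of fragments, not scaled between libraries, and with FPKM from Cuffdiff. Its replicates were matched to libraries by the order in the authors' Cuffdiff command. Loci with a failed status numbered 198, none of them members. Value columns matched to no library numbered 0.

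Members and lists were chosen with earlier results of these data known. The rule was applied to FPKM. Named members were those paired with a gene identifier, the 12 with the largest ratio of water to Toll and the 6 with the largest ratio of BMP to water (above 3 FPKM in water), the 8 most abundant, the 3 on each side of the limits and, by position, XLOC_000115. Other members named for few fragments, for their shape or for the leave-one-out result were chosen after their values were seen.

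Expected counts were rounded, and edgeR 4.0.16 (R 4.3.3) gave quasi-likelihood tests, with TMM, its default filter and all 6 libraries in 1 fit, and Benjamini-Hochberg adjustment over 10241 loci. The code was tested on simulated data with 200 changed loci. Alternatives were DESeq2 1.42.0, limma 3.58.1 on log2(FPKM + 1), RLE scaling, other filters, only the groups compared, a replicate block, each library left out, and other limits of the rule. With 2 libraries per group, p rests on few degrees of freedom. Tables were made with Python 3.11.15.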

Additional observations from a re-analysis of the deposited data

How the results depend on the processing

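The size of the set followed its limits: 7 loci with a 2-fold limit, 150 with a 1.3-fold limit, 23 with BMP at or above water, 23 with each BMP library at 0.9 times water, 221 with no BMP limit, 15 above 3 FPKM in water and 83 above 0.3 FPKM. TMM-scaled counts gave 31 loci, 27 of them members. Leaving out 1 library gave 32 to 81 loci, with 16 to 39 members among them, 16 without either water library, 81 loci without the gbb library and 68 without the first Toll library.

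Of the 4 members lower after Toll pRNAi than in water, the count became 12 with only those groups in the fit (6.23% of all loci tested there), 26 with every locus that had a count (4.25%), 10 with DESeq2 (2.06%), 0 with limma on log2(FPKM + 1) (0.0549%; 17 members at an unadjusted p under 0.05), and 1 to 13 with 1 library left out (0.151% to 6.44%). The 2 higher after BMP pRNAi became 1 with only those groups (0.258%), 0 with limma (0.0349%; 5 members at an unadjusted p under 0.05) and 0 to 3 with 1 library left out (0.0567% to 11.6%). The 12 lower after Toll than after BMP pRNAi became 26 with every counted locus (3.65%), 1 with limma (0.26%) and 4 to 19 with 1 library left out (0.348% to 7.68%). With a replicate block by the title numbers that Toll and BMP libraries share, they became 22 (3.62%), in a fit without water. Across the tested loci, the difference between the Toll libraries and that between the BMP libraries, taken in title-number order, correlated at 0.12. The labels do not say what the number marks. The causes were not tested. For the 18 named members the rule kept both Toll libraries below both water libraries, so leaving 1 out could not turn the sign of the log2 ratio of water to Toll, but its size moved: without water 2, XLOC_014583 went from 0.74 to 0.07 and XLOC_017484 from 0.70 to 0.16. Scarce members were limited by depth, with 14 of 44 under 30 fragments in some library.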

Other observations

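The locus numbers bracketed 25 of the 39 members without coordinates between paired loci of 1 scaffold, as they did for XLOC_000115, but most brackets were wide. Those of XLOC_002071 (scaffold 115, positions 417190 to 480604) and XLOC_001075 (scaffold 10, positions 2036151 to 2115431) were the next narrowest, at 63415 and 79281 bp. XLOC_013741 and XLOC_013771 shared a bracket of 544060 bp on scaffold 42. Their dpp to gbb ratios were 1.18 and 1.43. XLOC_003736 and XLOC_003654 also shared a bracket, of 2905160 bp on scaffold 14, and their ratios were 1.28 and 0.996. These places were inferred from the order of the numbers only.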
